A study of Caenorhabditis elegans with 4 samples.

Results

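The binding regions of ELT-1 on chromosome X of Caenorhabditis elegans were examined, defined as every region of the combined list that lies on X. There were 594 such regions, beside 1954 on the 5 autosomes, which make up the rest of that list. ELT-1::GFP was mapped by chromatin immunoprecipitation and sequencing (ChIP-seq) in hermaphrodites of strain OP354 at the L3 larval stage, grown at 20 °C. These worms carry the mutation unc119(ed3) and the transgene wgIs354, which holds elt-1 joined to TY1, EGFP and FLAG tags together with an unc119 marker. The transgene was introduced by bombardment and the strain was not outcrossed, per the labels. The 2 ChIP samples, replicates 1 and 2, share this genotype, stage and temperature, and differ in no stated factor; 2 input samples were not analysed here. Nothing in the labels says that the replicates came from separate cultures, so their differences may be technical. Each replicate has its own list, with 5343 of 28213 nuclear regions on X in replicate 1 and 4876 of 26300 in replicate 2. Coordinates are in WormBase WS220.

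ELT-1 belongs to the GATA family of zinc finger transcription factors, which bind short sites containing the letters GATA, and is known for specifying the epidermis of the worm. Hermaphrodites carry a pair of X chromosomes, and a dosage compensation complex that binds along both of them lowers their transcription to the level of the single X of males. Genes used in the germ line are scarce on X, while genes of somatic tissues are common there. No sequence or gene map of the WS220 build was used, so regions are identified by position and not by gene or motif.

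Every region carries a number in its name. The score in the combined list is the same for all regions, so this number was taken as the rank, with 1 the best. In the replicate lists regions were ranked by score and then by number. For comparison with the combined list, as many of the best nuclear regions of each replicate were taken as that list has, and these are called its best regions. What the number measures is not stated, and read depth is unknown. A region was said to have a partner in a replicate if at least 1 bp overlapped, and its replicate number is that of its best partner. On X, 28 regions shared their best partner in replicate 1 with another X region, and 28 did so in replicate 2. Neighbouring combined regions overlapped each other in 14 pairs on X, of 43 such pairs in the whole combined list. Tests treat regions as units. Regions are not independent replicates, and the p-values describe these lists.

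The best-ranked ELT-1 regions on X were found at nearly the same base pairs in both replicates. The best of them, at 12671588 to 12671921, stood at number 4 of the whole combined list, at number 10 in replicate 1 and at number 4 in replicate 2. The second, at 15469942 to 15470315, had number 15, with 26 and 11 in the replicates. The third, at 12511336 to 12511685, had number 16, with 22 and 15. These were the 3 best of X in replicate 2 as well, where they started at 12671605, 15469965 and 12511374.

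The next group on X was led by the region at 6743774 to 6744100, number 20, which was number 20 in replicate 1 and 45 in replicate 2. The region at 10769338 to 10769625, number 21, had 18 and 57. The region at 13141386 to 13141728, number 27, had 46 and 26, and its replicate midpoints were 0.5 bp apart. All 3 belonged to the places of 3 or more regions described further on.

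Below these, the region at 13539689 to 13539984 had number 31, with 32 in replicate 1 and 46 in replicate 2. The region at 14790176 to 14790485, number 36, was less alike in the replicates, at 104 and 19. The region at 4529003 to 4529292, number 42, had 58 and 54. Among the first 10 of X, only the region last named and number 20 lay before the midpoint of the chromosome.

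The tenth was at 10766078 to 10766341, number 48, with 49 and 70. Numbers 51 to 90 supplied the rest of the 20 best: they lay at 16555717, 13248255, 14575970, 6092549, 7774012, 8858230, 17427830, 6688974, 9548879 and 13744561, giving start positions in order of rank. The last of these, number 90 at 13744561 to 13744788, had the largest difference between replicates of the 20, with 209 in replicate 1 and 51 in replicate 2. Across the 20 no number exceeded 209 in replicate 1 or 137 in replicate 2. Replicate 1 gave the better number for 9 and replicate 2 for 11.

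The 20 best X regions were 204 to 374 bp wide, with a median of 281.5 bp. Their replicate midpoints lay 0.5 to 70 bp apart, with a median of 19.75 bp. Of the 20 combined regions, 17 overlapped one of the 20 best X regions of replicate 1 and 16 one of the 20 best of replicate 2. X held 23 of the 100 best combined regions and the autosomes 77. This was close to the share of X in the whole combined list, with 594 regions beside 1954 on the autosomes. Because the combined list was made from the replicates, the likeness between the replicates is a description and not separate evidence of binding.

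**Figure D1:**
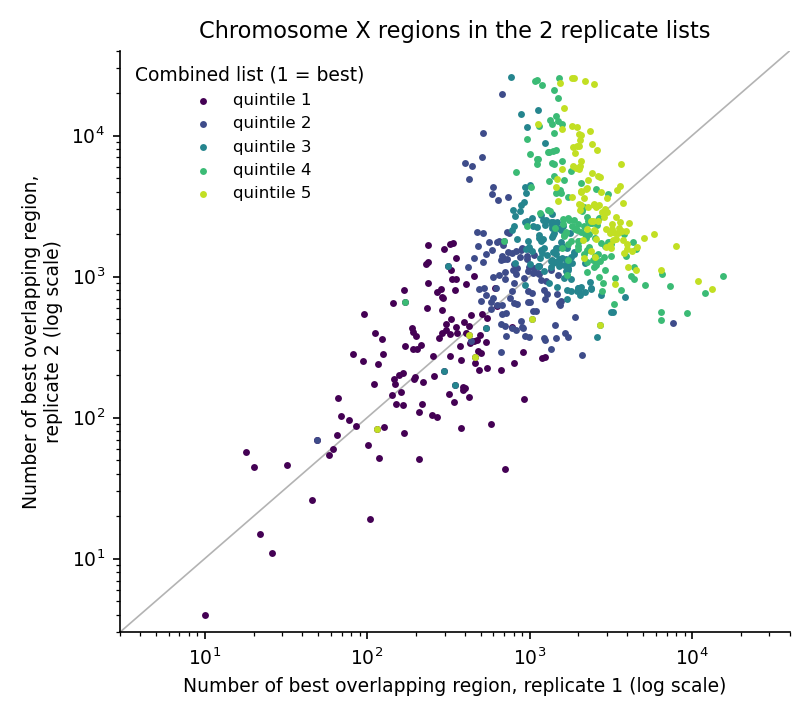
Each point is 1 of the 582 X regions with a partner in both replicates, placed by the number of its best partner in replicate 1 (x axis) and replicate 2 (y axis), both on log scales, and coloured by quintile of the combined list; the grey line marks equal numbers. Quintile 1 reaches at most 1247 in replicate 1 and 1746 in replicate 2, and some of its points lie well off the line, as number 187 does at 709 and 43. Over all quintiles 32 regions have replicate 2 numbers above 10000. Some points of later quintiles with low replicate numbers overlap a better combined region and share its partner, as number 721 does with number 48.

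Support from the replicates covered nearly all of X. The combined list was made from these replicates, so a high share could be foreseen and is not separate evidence of binding. Of the 594 X regions, 582 (98.0%, Wilson 95% interval 96.5 to 98.8) had a partner in both replicates, beside 97.5% of the whole combined list and 1903 of 1954 autosomal regions (97.4%). The odds ratio of X over autosomes was 1.30 (0.678 to 2.70; Fisher's exact two-sided p = 0.546, adjusted p = 0.873 over a family of 8 tests). Every X region had a partner in replicate 1, and the 12 exceptions lacked one in replicate 2. None of the X regions was found in replicate 2 alone.

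The 12 X regions without a replicate 2 partner all came from the later part of the combined list, numbers 1317 to 2509. The best of them was at 8404207 to 8404590. On the autosomes 50 of 1954 regions had a partner in replicate 1 only. In replicate 1 the 12 X regions had numbers 706 to 1855, and all 12 carried the highest score of that list. That score is capped, and a partner at rank 2476 of replicate 1 carried it too. By number the 12 were thus well placed in one replicate and without an overlapping region in the other.

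A larger number of X regions had a partner in both lists but very unequal ranks. In 32 X regions the best replicate 2 partner had a number above 10000 (5.39% of 594), against 87 autosomal regions (4.45% of 1954), a difference that did not pass the test (odds ratio 1.22, 0.779 to 1.87; Fisher's exact test, p = 0.374; bound chosen after seeing the data). The best of the 32 was the region at 12975567 to 12975950, with combined number 796, replicate 1 number 681 and replicate 2 number 19900. The reverse was seen in 4 X regions (0.673%), with replicate 1 numbers from 10972 to 15515, and in 9 autosomal regions (0.461%). The best of these 4, at 3482774 to 3483157, had combined number 1837 and replicate 2 number 1008.

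Across the X regions with both partners, replicate 1 and replicate 2 numbers had a Spearman's rho of 0.513 (n = 582), and the autosomal regions gave 0.432 (n = 1903). The combined number followed replicate 1 (rho 0.848, n = 594) more closely than replicate 2 (rho 0.741, n = 582) on X. These correlations run over regions of the same 2 samples, are descriptions only, and their difference between X and autosomes was not tested. The midpoints of the replicate partners were a median of 38 bp apart on X, with quartiles of 15 and 76 bp, and the autosomes gave the same 3 values.

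A stricter form of support is a partner among the best regions of each replicate. On X 375 regions had it (63.1%, 59.2 to 66.9), on the autosomes 1160 (59.4%, 57.2 to 61.5), and in the whole list 60.2%. The difference did not pass the test (odds ratio 1.17, 0.966 to 1.42; Fisher's exact test, p = 0.104, adjusted p = 0.291). Another 125 X regions (21.0%) had such a partner in replicate 1 only, 76 (12.8%) in replicate 2 only, and 18 (3.03%) in neither. The autosomal counts were 498 (25.5%), 243 (12.4%) and 53 (2.71%).

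This support fell steeply with rank. Since the same replicates made the combined list, the fall is a description and not separate evidence of binding. The combined list was divided by number into quintiles, of which quintile 1 is the best. All 129 X regions of quintile 1 had this support, 102 of 113 (90.3%) in the second, 91 of 115 (79.1%) in the third, 41 of 125 (32.8%) in the fourth and 12 of 112 (10.7%) in the last. The autosomal shares were 99.2%, 88.9%, 65.0%, 35.1% and 9.57%. In quintile 3 X lay above the autosomes (odds ratio 2.04, 1.22 to 3.51; Fisher's exact test, p = 0.00433, adjusted p = 0.0217 over the 5 quintiles, a comparison made with the data in view). That call was lost when the best regions of each replicate were limited to 1274 (odds ratio 1.20, Fisher's exact adjusted p = 0.971) or extended to 5000 (1.64, adjusted p = 0.367). It was also lost with replicate 2 alone (1.86, Fisher's exact adjusted p = 0.131) and with replicate 1 alone (1.94, adjusted p = 0.607). In the other quintiles X and autosomes were not detectably different (Fisher's exact adjusted p = 0.864 in each).

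**Figure D2:**
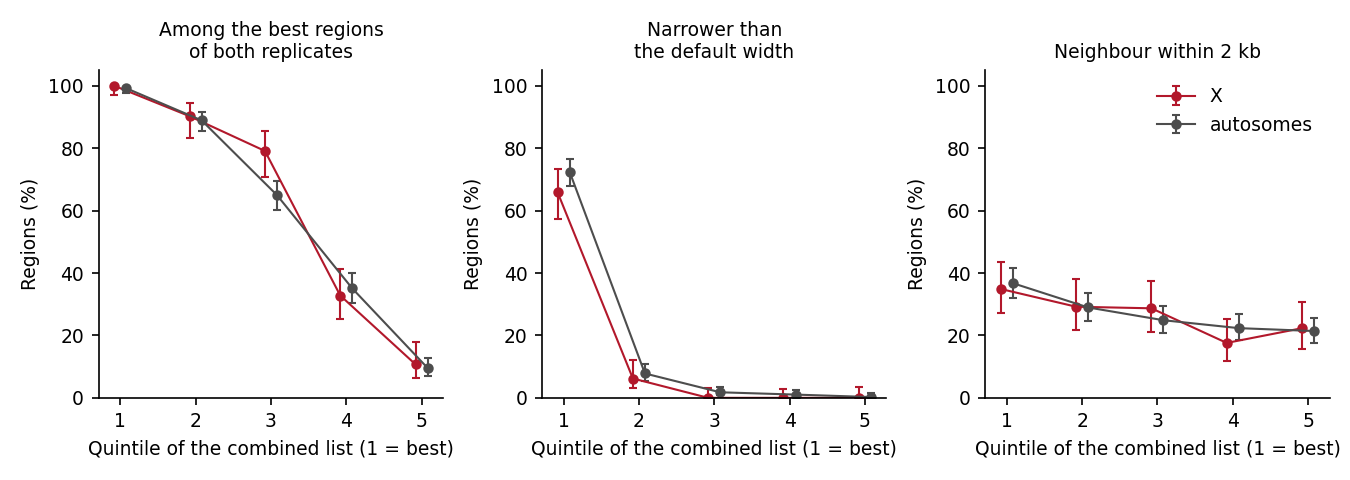
The 3 panels give the percentage of regions in each quintile of the combined list (1 is the best) that are among the best regions of both replicates, narrower than the default width, or within 2 kb of a neighbour, for X (red) and autosomes (grey), with Wilson 95% intervals. Support on X falls from 100% to 10.7%, narrow regions stand mostly in quintile 1 (85 of 92 on X), and in the first panel, where each quintile was tested, X passed against the autosomes in quintile 3.

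The same question was asked of the replicate lists without the combined list. Of the 584 X regions among the best of replicate 1, 532 (91.1%) overlapped a replicate 2 region, beside 90.8% of that whole set and 90.7% on the autosomes (odds ratio 1.05, 0.756 to 1.48; Fisher's exact test, adjusted p = 0.923). Of the 577 X regions among the best of replicate 2, 537 (93.1%) overlapped a replicate 1 region, beside 91.4% of the whole set and 90.9% on the autosomes (odds ratio 1.35, 0.939 to 1.98; Fisher's exact test, adjusted p = 0.291). The 127 X regions in the best 500 of replicate 1 and the 125 in the best 500 of replicate 2 all had a partner, as did 372 of 373 and 374 of 375 autosomal regions.

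Over the whole replicate lists the shares were higher on X. In replicate 1, 2139 of 5343 X regions (40.0%) had a partner, against 36.5% on the autosomes (odds ratio 1.16, 1.09 to 1.23; Fisher's exact test, p = 2.22e-06). In replicate 2 it was 2114 of 4876 (43.4%) against 38.8% (odds ratio 1.21, 1.13 to 1.29; Fisher's exact test, p = 4.25e-09). The lists were also denser on X, where replicate 2 covered 10.1% of the sequence against 9.59% on the autosomes and replicate 1 covered 10.8% against 10.0%. The part of this density in the overlap was not tested.

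The best regions of replicate 2 overlapped a combined region more often when they lay on X. Of the 577 on X, 450 (78.0%, 74.4 to 81.2) overlapped a combined region, against 1411 of 1971 on the autosomes (71.6%, 69.6 to 73.5). The odds ratio was 1.41 (1.12 to 1.77; Fisher's exact test, p = 0.00234, adjusted p = 0.00468 over both replicates, added after seeing the data). For replicate 1 the shares were 84.8% on X and 84.6% on the autosomes (odds ratio 1.01, 0.781 to 1.33; Fisher's exact test, adjusted p = 0.948). The combined list was made from these replicates and was denser on X, where its regions covered 1.18% of the sequence against 0.831% on the autosomes. How far this density raised the overlap was not tested. The best X region of replicate 2 outside the combined list was number 902, at 4662402 to 4662785, and that of replicate 1 was number 911, at 11095363 to 11095738. Of the best regions outside the combined list, 1 of 89 on X and 17 of 303 on the autosomes overlapped a best region of the other replicate in replicate 1, and 1 of 127 and 19 of 560 did so in replicate 2. These counts were not tested.

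Taken over whole chromosomes, X carried more regions per Mb than each of the autosomes. Its 33.5 regions per Mb exceeded chromosome V (20.3) by 1.65 times (95% interval 1.45 to 1.87), IV (20.8) by 1.61 times (1.41 to 1.84) and I (24.6) by 1.36 times (1.19 to 1.55). The excess over III (26.8) was 1.25 times (1.10 to 1.43) and that over II (27.8) was 1.21 times (1.06 to 1.37). All 5 passed the exact binomial test, with adjusted p from 1.09e-14 for V to 0.00312 for II. When X was taken only up to its midpoint, a setting chosen with the data in view, the ratio to II was 1.09 (exact binomial adjusted p = 0.270) and that to III was 1.13 (adjusted p = 0.180).

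The excess on X was present in the best ranks of each list and was smaller below the best regions. In the best 510 regions the ratio of X to the pooled autosomes, in regions per Mb, was 1.58 in the combined list (1.28 to 1.93), 1.54 in replicate 1 (1.25 to 1.89) and 1.53 in replicate 2 (1.24 to 1.87). At ranks 511 to 1274 it was 1.34 (1.13 to 1.59) in replicate 1 and 1.25 (1.05 to 1.49) in replicate 2. In the lower-ranked 50% of the best regions it was 1.35 (1.18 to 1.54) and 1.37 (1.19 to 1.56), so that within the best regions it followed no steady order. It was 1.30 and 1.14 from there to rank 5000 and 1.13 (1.05 to 1.21) and 1.10 (1.02 to 1.18) at ranks 5001 to 10000. Each of these passed the exact binomial test (adjusted p at most 0.0157 over 19 blocks, added after seeing the data).

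Beyond rank 10000 no excess was detectable. At ranks 10001 to 20000 the ratio was 1.03 (0.976 to 1.08; exact binomial test, adjusted p = 0.357) in replicate 1 and 0.974 (0.924 to 1.03; adjusted p = 0.357) in replicate 2. In the remaining regions it was 0.992 (0.936 to 1.05) and 1.02 (0.956 to 1.09). X made up 22.9% of the best regions of replicate 1 and 17.8% of those beyond rank 10000 (odds ratio 1.37, 1.24 to 1.51; Fisher's exact test, adjusted p = 1.60e-09). In replicate 2 the shares were 22.6% and 17.6% (odds ratio 1.38, 1.24 to 1.52; Fisher's exact test, adjusted p = 1.60e-09). Both contrasts were added, and their bound chosen, after seeing the data, and they leave out the ranks between. They restate the ratios above and are not separate evidence. Within the combined list the ratio did not fall steadily: the 5 quintiles gave 1.58, 1.33, 1.36, 1.51 and 1.31, with intervals that overlapped. X supplied 129, 113, 115, 125 and 112 regions to them.

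**Figure D3:**
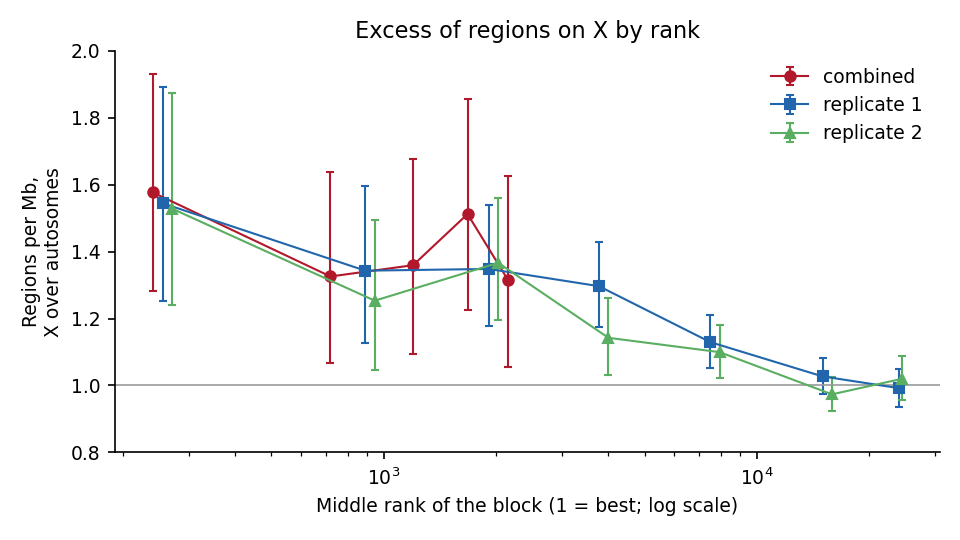
The ratio of regions per Mb on X to that on the pooled autosomes is plotted for blocks of rank (x axis, middle rank, log scale) in the combined list and both replicate lists, with exact 95% intervals. The ratio lies between 1.53 and 1.58 in the best 510 regions of the 3 lists and meets the line at 1 beyond rank 10000 in both replicates.

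X regions were not ranked better than autosomal ones to a degree that the list could show. Of the 594, 129 (21.7%, 18.6 to 25.2) were in quintile 1, against 381 of 1954 (19.5%; odds ratio 1.15, 0.907 to 1.44; Fisher's exact test, p = 0.242, adjusted p = 0.484). The X regions on either side of that limit were number 509, at 13119847 to 13120230, and number 515, at 2448872 to 2449255. Number 509 had 322 and 1706 in replicates 1 and 2, and number 515 had 716 and 382. The median number was 1235.5 on X and between 1247 and 1321.5 on the autosomes.

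Along X the density of combined regions varied less from part to part than along the autosomes. In 10 equal parts of X, from its start, the combined list held 36, 58, 57, 66, 51, 52, 64, 72, 81 and 57 regions. The first part was the sparsest, at 20.3 per Mb, and the ninth the densest, at 45.7 per Mb. The densest of 10 such parts of an autosome held from 36.0 per Mb on IV to 43.9 on II, above the 33.5 of X as a whole. The sparsest held from 5.26 per Mb on V to 12.6 on I. X as a whole was thus not denser than every part of the autosomes. The highest part of X held 2.25 times its lowest, where the autosomes ranged from 3.11 times on I to 8.09 times on V. Chi-square per degree of freedom, against an even spread, was 2.57 on X and 4.79 to 15.3 on the autosomes. The distribution over the 10 parts differed between X and the pooled autosomes (chi-square 95.8, 9 degrees of freedom, p = 1.10e-16, added after seeing the data).

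The parts of X nevertheless differed among themselves (chi-square 23.2, p = 0.00582). The best regions of replicate 1 held 38 to 77 in a part (chi-square 22.1) and those of replicate 2 held 33 to 78 (chi-square 25.4), though they share samples with the combined list. In the replicate regions ranked below the best, X was not the most even by the ratio of the highest part to the lowest. The highest part of X held 1.47 times the lowest in replicate 1 and 1.48 times in replicate 2, against 1.43 times on III in replicate 1 and 1.19 times on IV in replicate 2. In replicate 2 chi-square per degree of freedom was 5.62 on X, 4.23 on III and 1.58 on IV. In replicate 1 this measure was lowest on X, though close to III (chi-square 48.6 on X and 49.1 on III, each with 9 degrees of freedom). By chi-square X was thus the most even chromosome in replicate 1 but not in replicate 2. With neighbours within 2 kb joined and counted once, the parts held 35 to 64 places and no longer passed the test (chi-square 10.9, p = 0.284). Joining also lowered the number counted from 594 to 504.

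Beyond its midpoint X held 326 regions and before it 268, a ratio of 1.22 (1.03 to 1.44; exact binomial test, p = 0.0193). After adjustment over the family of 8 tests this did not pass (exact binomial adjusted p = 0.154). With neighbours joined the ratio was 1.10. Of the 20 best X regions 14 lay beyond the midpoint. Of the 326 regions beyond the midpoint 78 (23.9%) were in quintile 1, against 51 of the 268 before it (19.0%), which did not pass (odds ratio 1.34, 0.884 to 2.04; Fisher's exact test, p = 0.162, added with the data in view).

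**Figure D4:**
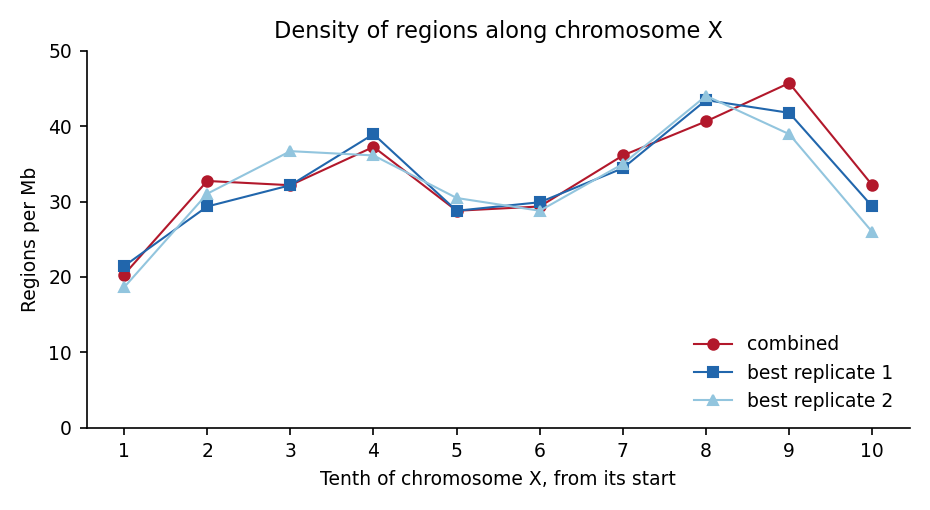
Regions per Mb are plotted for 10 equal parts of X from its start (x axis) in the combined list and in the best regions of each replicate. All 3 lists are lowest in the first part and reach their highest density in the eighth or ninth; the combined list runs from 20.3 to 45.7 per Mb.

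The start of X was empty of combined regions. The first lay at 353135, so 353.1 kb preceded it, where the first region of an autosome started 3.71 to 126.1 kb from the chromosome's start. Replicate 1 had 20 regions in this stretch and replicate 2 had 24, but their best numbers were 3524 and 4288 and none was among the best of either list. At the other end the last region closed 33.0 kb before the largest listed coordinate of X.

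Long empty stretches between regions were fewer and shorter on X, but its typical gap was not the shortest. The median gap was 14.9 kb on X, longer than the 13.9 kb of II and shorter than those of the other autosomes (17.4 to 24.1 kb). The largest gap of X was 228.8 kb, from 1627340 to 1856183, and the next was 210.6 kb, from 11726691 to 11937273. The largest gap of an autosome was 310.1 kb on I to 766.3 kb on V. Gaps over 150 kb numbered 12 on X and 16 to 30 on the autosomes. These lengths were not tested, and denser lists have shorter gaps. In the 228.8 kb gap each replicate listed 31 regions, of which 0 in replicate 1 and 2 in replicate 2 were among the best.

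Close neighbours were as frequent on X as elsewhere. Another combined midpoint lay within 2 kb of 158 X regions (26.6%, 23.2 to 30.3), of 26.8% of the whole list and of 524 autosomal regions (26.8%; odds ratio 0.989, 0.798 to 1.22; Fisher's exact test, adjusted p = 0.958). Within 5 kb the shares were 45.5% on both, and within 1 kb they were 12.8% and 11.3%. The median distance to the nearest midpoint was 6061 bp on X and 6214.5 bp on the autosomes. Denser lists have closer neighbours, and these shares and distances were not adjusted for the higher density of X.

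Joining midpoints within 2 kb left 504 places on X, of which 436 were single regions, 55 were pairs and 13 held 3 or more. These 13 places held 48 regions, 8.08% of X, and the autosomal share was 8.09% (odds ratio 0.999, 0.698 to 1.41; Fisher's exact test, p = 1). Regions in such places stood higher in the list, with a median number of 856.5 against 1118 in pairs and 1315.5 for single regions, beside 821, 1174 and 1361.5 on the autosomes. Of the 48, 41 (85.4%) were among the best of both replicates, against 264 of 436 single regions (60.6%), and on the autosomes 120 of 158 (75.9%) against 799 of 1430 (55.9%). Overlapping neighbours can share a partner, so these shares were not tested.

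The largest place on X ran from 10764954 to 10771421 and held 8 regions within 6.47 kb. In order along the chromosome their numbers were 859, 48, 721, 887, 1677, 357, 21 and 758. The best of them, number 21, had a neighbour at 847 bp on one side, number 357, and at 1748 bp on the other, number 758. Numbers 48 and 721 overlapped and shared their best partners, numbers 49 in replicate 1 and 70 in replicate 2. All 8 had partners in both replicates, and 7 were among the best of both. The exception, number 887, had 7612 in replicate 1 and 470 in replicate 2.

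The second place ran from 13141386 to 13146565 and held 5 regions, numbers 27, 744, 1827, 362 and 1948 in order. Their midpoints were 1045 to 1410.5 bp apart, and none overlapped. Number 27, the first, ranked far above number 744 beside it, and number 362 was again better than both of its neighbours. The last, number 1948, had 6555 in replicate 1 and 1044 in replicate 2.

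Of the other places, 2 held 4 regions. The one at 6736346 to 6738809 was led by number 188, at 6737679 to 6737815, and the one at 11605609 to 11608587 by number 239, at 11608417 to 11608587. Beyond the first of these lay a place of 3 regions at 6742154 to 6744100, which ended with number 20, the fourth best region of X. In that place numbers 231 and 1335 came before it.

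The remaining 8 places held 3 regions each. Those at 10301883 to 10304429 and 6382936 to 6384852 were led by numbers 142 and 265. Those at 15273968 to 15277044 and 14500434 to 14503656 were led by numbers 335 and 373. The places at 14560152 to 14562983, 4132173 to 4133757, 11471973 to 11474334 and 16929345 to 16931187 had no region in quintile 1, and their best numbers were 644, 675, 1159 and 1336.

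**Figure D5:**
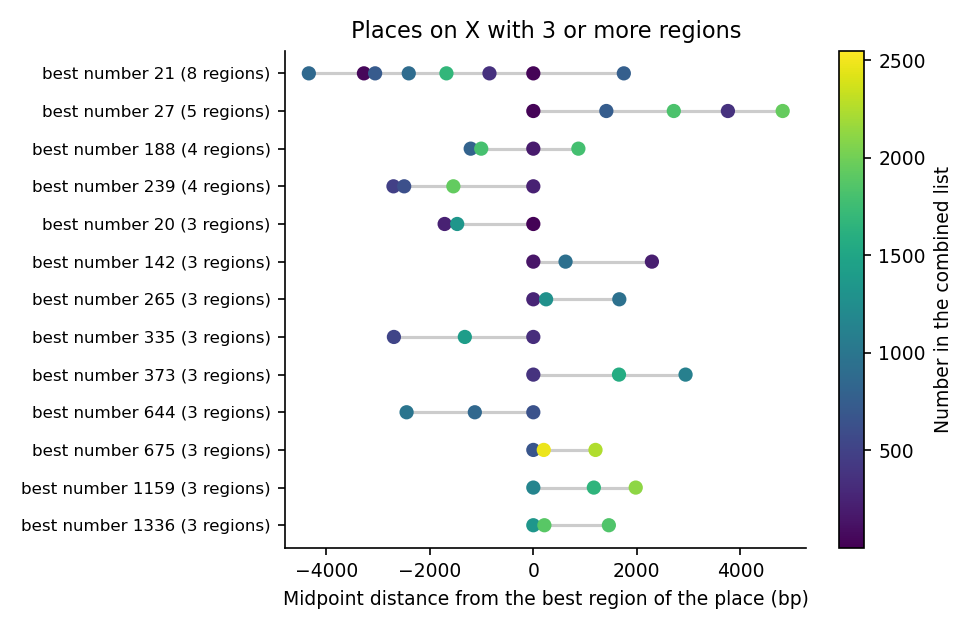
Each row is 1 of the 13 places on X with 3 or more regions, sorted by the number of regions and then by their best number; points are region midpoints, placed by their distance in bp from the best region of the place and coloured by number in the combined list. The place of 8 regions extends from 4336 bp before to 1748 bp after its best region, and in 11 rows the best region stands at one end of its place. Most places hold 3 regions, of which all but the middle region stand at an end, and this count was not tested.

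The best-ranked regions were mostly narrow ones, on X as on the autosomes. The default width of the combined list was 384 bp, which 502 X regions had, and the other 92 (15.5%, 12.8 to 18.6) were narrower. The whole list had 16.1% narrower regions and the autosomes 16.3% (odds ratio 0.939, 0.721 to 1.22; Fisher's exact test, adjusted p = 0.875). None of the X regions was wider than 384 bp, against 10 of 1954 on the autosomes, a difference the test did not pass (p = 0.130, Fisher's exact test, added after seeing the data).

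All 23 X regions among the best 100 were narrower than the default, with widths from 204 to 374 bp. So were 26 of 28 at numbers 101 to 200, 19 of 24 at 201 to 300, 11 of 33 at 301 to 400, 6 of 21 at 401 to 510 and 7 of 465 beyond. The autosomes gave 73 of 77, 69 of 72, 55 of 76, 42 of 67, 37 of 89 and 43 of 1573 in the same blocks. Over quintile 1 the narrow share was 65.9% on X and 72.4% on the autosomes. The median width on X fell from 270 bp in the best 100 to 205 bp and then 183 bp at numbers up to 200 and 300, and that on the autosomes from 268 to 198 and 189 bp. The narrowest X regions were 96 bp wide: 5 had this width, of which the best was at 8875875 to 8875970 (number 450) and the last was number 877. On the autosomes 17 regions had this width, which was the narrowest there too.

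The 92 narrow X regions were all among the best regions of both replicates, against 283 of the 502 default ones. On the autosomes this held for 309 of 319 narrow and 841 of 1625 default regions. The replicate midpoints of narrow X regions were a median of 22.75 bp apart, and 43 bp at default width, beside 23 and 43 bp on the autosomes. Within quintile 1, where the ranks are more alike, all 85 narrow and all 44 default X regions were among the best of both replicates. The contrast in that support was therefore absent there. Their replicate midpoints had a median distance of 21.5 bp in the 85 narrow regions and 38 bp in the 44 default ones. No source used here says how the width was set, so these values are descriptions and were not tested. The last narrow region on X was number 877, and on the autosomes narrow regions reached number 2312. Such late narrow regions were rare there: 7 of 394 in quintile 3, 4 of 385 in quintile 4 and 1 of 397 in quintile 5. X had none among its 115, 125 and 112 regions of these quintiles, a difference that was not tested.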

How the data were processed

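The authors deposited 3 lists of binding regions, 1 for each ChIP sample and 1 combined, with WormBase WS220 coordinates per the file headers. The source field of the deposited lists names SPP, a peak caller, and IDR, which rates regions by their ranks in both replicates. The score that the authors gave each region has no stated meaning; it is capped in the replicate lists and constant in the combined one. The sources used here do not give the aligner, the thresholds, the use of input or the rule behind the combined list.

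Overlaps of at least 1 bp, widths and midpoint distances were computed from these lists. X was compared with the autosomes by Fisher's exact, exact binomial and chi-square tests, with Benjamini-Hochberg adjustment within each family and a threshold of 0.05 on the adjusted p. Chromosome length was the largest listed coordinate, 17.7 Mb for X. Intervals are 95% and treat regions as independent. Functions were tested on simulated lists. The regions described singly are the 20 best on X, every place of 3 or more, the narrowest, the best without full support, and those at the limit of quintile 1; others were named after seeing their values. The members and tests were chosen with earlier results of these data known. GATA motifs, promoters and genes need a WS220 genome and were not analysed here. The software was scipy 1.17.1, pandas 2.3.3, numpy 2.4.6 and, for plots, matplotlib 3.10.9, under Python 3.11.15.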

Additional observations from a re-analysis of the deposited data

How the results depend on the processing

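Of 85 alternatives over 30 results, 74 kept both the direction and the side of the threshold. The excess of X over each autosome passed with neighbours joined, in the better-ranked 50% of the list and in the best regions of either replicate, but with X up to its midpoint alone the ratios of 1.09 to II and 1.13 to III did not pass. Support among the best regions gave odds ratios of 0.950 to 1.24 with either replicate left out, a change of sign in a result that passed under no setting. The odds ratio for close neighbours, 0.989, turned to 1.04 in the better-ranked 50% and to 1.15 at 1 kb, again without passing. Sharing between replicates passed only over whole lists (odds ratios 1.16 and 1.21), and the cause was not tested. The difference in quintile 3 was lost in 4 of its 6 alternatives. Where every X region had a partner no odds ratio could be estimated. The alternatives for motif and promoter were not run. No paired analysis was possible because the tests count regions and the input samples were not analysed here. Read depth is unknown, so a missing partner does not show that a site was unbound.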
